A study of Mus musculus with 59 samples.

Results

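Fatty acid oxidation genes and targets of the peroxisome proliferator-activated receptors (PPARs) were followed in lung, liver and forestomach of mice dosed by mouth with a polycyclic aromatic hydrocarbon. The set held 36 genes chosen by name, of 37163 genes or transcripts on the array. Each gene was found through the RefSeq accession of its probes. Of the 36 genes, 27 had 1 probe, 8 had 2 and 1 had 3, which made 46 probes of 55681, and the brightest probe over all arrays stood for its gene. The mice were male MutaMouse animals, a transgenic strain built for mutation assays, about 16 weeks old. They were gavaged daily for 28 days with olive oil (vehicle) or with 25 (low), 50 (medium) or 100 (high) mg per kg body weight per day of the compound in olive oil, and tissues were taken 72 h after the last dose. Each tissue and dose held 5 mice, 1 array per mouse, except the low dose in lung with 4, and the same mouse gave all 3 tissues. Sample titles and the treatment description name the compound as benzo(b)fluoranthene, whereas the exposure label names benz(a)anthracene, so the groups are called here by dose only. RNA came from randomly taken pieces of each organ and was labelled with Cy5, against a Cy3-labelled universal mouse reference pooled from 11 cell lines. Every value below is log2(Cy5/Cy3) after loess normalisation unless it is stated to be a change. In whole tissue, fewer cells of a type and less RNA per cell cannot be told apart.

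Fatty acids are burned mainly in mitochondria. They are first activated to acyl-CoA, carried across the inner membrane by the carnitine shuttle, in which Cpt1 enzymes set the pace, and then shortened by repeated rounds of acyl-CoA dehydrogenases, hydratases and thiolases. Very long and branched chains are shortened in peroxisomes. PPAR alpha, encoded by Ppara, is a fatty acid-activated nuclear receptor that switches on many of these genes, above all in liver during fasting, and Ppargc1a encodes a coactivator of the same programme.

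Of the 36 genes, 34 in lung, 23 in liver and 32 in forestomach were well above background on every array of the tissue. Fgf21, a fasting hormone made chiefly by liver, was above background on no array of lung or forestomach. No probe was saturated. The 8 liver arrays of slide 3 were dim: 10.8 to 12.9% of probes were well above background on them, against 37.1 to 46.2% on the other liver slides. That slide carried vehicle mouse 5, mice 6 and 10 of the low dose, 11 and 15 of the medium dose, and 18, 19 and 20 of the high dose, so liver was fitted with the slide as a block and liver results are also given within slides. The tissue labels matched their marker genes in every mouse. The mean log2 ratio of the lung epithelium markers was 6.42 to 7.25 in lung, that of the hepatocyte markers 6.26 to 6.82 in liver, and that of the squamous epithelium markers 4.50 to 5.13 in forestomach. In lung 2 arrays stood apart. Mouse 13 of the medium dose had 68.8% of probes well above background, against 44.8 to 52.7% on the other lung arrays. Mouse 6 of the low dose had squamous epithelium markers at 3.82 and skeletal muscle markers at 3.41. The mean of Cyp1a1, Cyp1a2 and Cyp1b1, cytochromes that the aryl hydrocarbon receptor induces, was highest among vehicle mice in mouse 2 in each tissue. In lung it was 2.88 in that mouse, against a vehicle median of 0.461 and 2.23 to 4.77 at the high dose, so results that turn on mouse 2 are also given without it.

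Promoter windows of some of the genes named below are shown first. Each is the 250 bases before the transcription start in RefSeq on GRCm38.p6, written in the direction of the gene, with the PPAR half-site AGGTCA, on either strand, in capitals. Acot1, a cytosolic acyl-CoA thioesterase, and Fabp1, the liver fatty acid-binding protein, gave the largest tissue differences. Cpt1a, the liver-type carnitine palmitoyltransferase, and Acadvl, the very long-chain acyl-CoA dehydrogenase, were among the 6 genes past the adjusted p in lung. The windows lie at chr12:84009252-84009501 on the + strand (Acot1), chr6:71199629-71199878 on the + strand (Fabp1), chr19:3323051-3323300 on the + strand (Cpt1a) and chr11:70015429-70015678 on the - strand (Acadvl).
Acot1: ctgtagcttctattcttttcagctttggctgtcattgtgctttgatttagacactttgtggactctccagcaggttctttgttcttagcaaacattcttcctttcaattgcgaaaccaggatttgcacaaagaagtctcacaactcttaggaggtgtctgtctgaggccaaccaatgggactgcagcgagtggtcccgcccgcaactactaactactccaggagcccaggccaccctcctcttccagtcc
Fabp1: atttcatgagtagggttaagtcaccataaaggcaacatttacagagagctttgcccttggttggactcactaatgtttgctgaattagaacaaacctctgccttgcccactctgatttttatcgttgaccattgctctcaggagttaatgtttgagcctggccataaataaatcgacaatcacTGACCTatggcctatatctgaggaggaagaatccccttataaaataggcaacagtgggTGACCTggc
Cpt1a: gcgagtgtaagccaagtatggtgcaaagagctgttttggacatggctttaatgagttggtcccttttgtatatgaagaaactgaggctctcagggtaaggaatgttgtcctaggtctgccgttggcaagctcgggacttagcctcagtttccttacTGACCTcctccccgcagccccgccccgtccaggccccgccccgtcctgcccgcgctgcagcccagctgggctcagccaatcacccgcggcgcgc
Acadvl: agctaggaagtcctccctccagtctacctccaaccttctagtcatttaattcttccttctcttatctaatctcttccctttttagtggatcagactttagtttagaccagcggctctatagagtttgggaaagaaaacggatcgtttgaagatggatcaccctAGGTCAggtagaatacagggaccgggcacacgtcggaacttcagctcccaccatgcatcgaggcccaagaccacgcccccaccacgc
The Fabp1 window held the half-site at 67 and 9 bases before the start, the Cpt1a window at 94 and the Acadvl window at 87, and the Acot1 window held none. Over the 30 members with a window, 7 held the half-site (23.3%), against 4260 of 27025 genes (15.8%). Besides those 3 genes they were Acadm, Echs1, Cat and Plin2. The windows of Acadl, Acot8 and Eci1, which also passed the adjusted p in lung, are not shown and held no half-site. The exact direct repeat of AGGTCA with 1 spacer base of any kind was in none of the 30 and in 11 of 27025 genes (0.0407%). That repeat is the classical PPAR element in its exact form, and looser matches were not searched. A match describes the letters only, and no match says only that these letters are not in the window.

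In vehicle mice, liver stood above lung and forestomach for most of the set. Between lung and liver 30 of 36 genes differed by at least 1.5-fold at an adjusted p of 0.05 or less (called, from here on), 28 of them lower and 2 higher in lung, where 29.1% of all genes were called (17.4% higher and 11.7% lower in lung). Between liver and forestomach 24 were called, 21 higher and 3 lower in liver, against 24.4% of all genes (9.83% higher and 14.6% lower). Between lung and forestomach 19 were called, 17 of them lower in lung, against 23.0% (12.1% higher and 10.9% lower). The median difference of the 36 was -1.68 for lung against liver, -0.84 for lung against forestomach and 1.06 for liver against forestomach, where the median of all genes was -0.01, -0.01 and 0.00. With arrays centred on their median in place of loess, 11 genes were called in lung against liver (2 higher and 9 lower in lung), 6 in liver against forestomach (4 higher and 2 lower in liver) and 2 in lung against forestomach (Acot1 and Pdk4, both lower in lung). Under it 15.2% of all genes were called in lung against liver (10.7% higher and 4.56% lower), 12.3% in liver against forestomach (3.51% higher and 8.81% lower) and 11.3% in lung against forestomach (6.09% higher and 5.23% lower). None of the genes named below for the size of their difference turned its direction.

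Uptake, binding and activation genes showed the widest range. Fabp1 was at 10.4, 10.5, 10.1, 10.3 and 9.74 in vehicle liver of mice 1 to 5. It was at 3.93, 3.94, 4.58, 4.04 and 4.56 in vehicle lung and at 2.83, 1.31, 0.83, 1.81 and -0.03 in vehicle forestomach. The 3 tissues did not overlap, liver being highest and forestomach lowest and the most scattered. Liver exceeded forestomach by 8.87 and lung by 6.01 (SE 0.38) on the log2 scale, and lung exceeded forestomach by 2.86, a call that was lost with median centring (2.04, adjusted p 0.18). Acsl1, an acyl-CoA synthetase that activates long-chain fatty acids, was lower in lung than in liver by 3.98 and higher in liver than in forestomach by 2.92. Acot1 went the other way. It was at 3.78, 4.66, 4.23, 4.70 and 4.45 in vehicle forestomach, at 0.99, 1.44, 1.74, 1.48 and 2.07 in lung, and at 0.58, -0.37, -0.45, -0.58 and -0.00 in liver. Again the tissues did not overlap, and the order was forestomach, lung, liver: forestomach exceeded lung by 2.82 and liver by 4.53, and lung exceeded liver by 1.71. Acot2, the mitochondrial thioesterase, averaged -0.19 in lung, -0.67 in liver and -0.15 in forestomach, was well above background on 1 of 20 liver arrays, and was not called in any pair. Acot1 and Acot2 are nearly identical in sequence, so part of either signal may belong to the other.

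For the carnitine shuttle (Cpt1a, Cpt1b, Cpt2, Slc25a20 and Crat) 3 of 5 genes were called between lung and liver, 2 of 5 between liver and forestomach and 1 of 5 between lung and forestomach. Cpt1a averaged 2.40 in vehicle liver, 1.01 in lung and 1.26 in forestomach. Cpt1b, the muscle form, averaged -0.17, -0.33 and -0.39 and was near background, above it on 2, 3 and 0 of the 5 vehicle arrays, so its tissues could not be ranked. Cpt2, the inner-membrane enzyme, was lower in lung than in forestomach by 1.88 (adjusted p 0.187 with median centring).

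Of the 12 mitochondrial beta-oxidation genes, 11 were called between lung and liver, 9 between liver and forestomach and 7 between lung and forestomach. The widest of these was Acaa2, the mitochondrial 3-ketoacyl-CoA thiolase, lower in lung than in liver by 3.39. Of the 9 peroxisomal genes 8, 6 and 6 were called in the same order of pairs. Acox2, the branched-chain acyl-CoA oxidase, was at 5.17 to 6.45 in vehicle liver, 3.32 to 4.08 in forestomach and 1.64 to 2.26 in lung, with no overlap between tissues. Cat, the peroxisomal catalase, averaged least in forestomach: liver exceeded it by 4.49, and lung by 1.36, a difference with an adjusted p of 0.357 under median centring. Acaa1a and Acaa1b, peroxisomal thiolases so alike in sequence that their probes may share signal, averaged 1.98 and 3.55 in liver, 1.60 and 0.65 in lung, and 2.14 and 1.53 in forestomach.

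Regulators and further targets did not share 1 order. Ppara was at 6.42, 6.29, 6.37 and 6.27 in vehicle liver of mice 1 to 4 and at 2.85 in mouse 5, whose array was on the dim slide. It was at 4.31, 4.78, 4.89, 4.68 and 4.72 in forestomach, and at 2.56, 2.57, 2.18, 2.35 and 2.80 in lung. Without mouse 5 the 3 tissues did not overlap. Lung was below forestomach by 2.19, a call lost under median centring (difference -1.73, adjusted p 0.281). Ppargc1a averaged 1.23 in liver, 0.68 in forestomach and 0.18 in lung, the liver mean including mouse 5 at 0.11 (others 1.44 to 1.57). Pdk4, a kinase that shuts pyruvate out of mitochondria and a PPAR target, averaged 3.19 in forestomach, 1.62 in liver and 0.84 in lung. It was lower in lung by 2.34 and in liver by 1.57 than in forestomach. Mouse 5 was at 0.22 for Pdk4 in liver (others 1.78 to 2.36) and at 4.05 in forestomach (others 2.625 to 3.20). With each mouse left out in turn, liver against forestomach was -1.77 to -1.01 for Pdk4 and stayed called. Vnn1, a pantetheinase and PPAR target, was lower in liver than in lung by 1.12 and than in forestomach by 1.05, the latter call being lost under median centring (adjusted p 0.0569). Fgf21 was at least 2.45-fold higher in vehicle liver than in lung and at least 2.32-fold higher than in forestomach, bounds set by the dimmest signal above background. The plot of vehicle levels shows the genes by role.

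**Figure D1:**
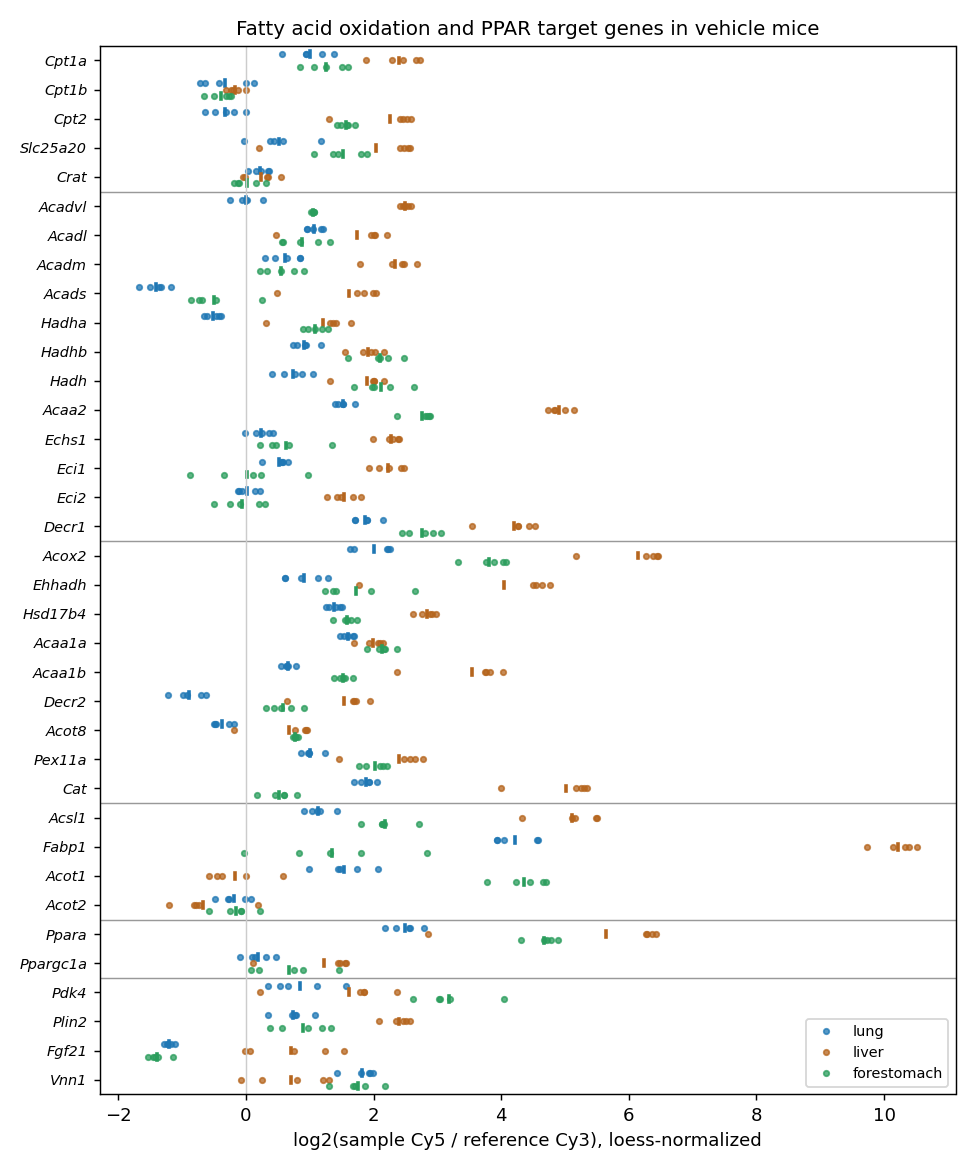
Log2(Cy5/Cy3) of the 36 genes in lung, liver and forestomach of the vehicle mice, ordered by role; each dot is 1 mouse (5 per tissue) and the bar their mean. Liver lies to the right of lung for most genes, whereas Acot1 is highest in forestomach and lowest in liver, and 1 liver dot of Ppara, mouse 5 at 2.85, lies far below the others.

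In lung, few of these genes changed with dose, and by little. With 25 and 50 mg, limma called 0 of 36, where 0.433 and 0.584% of all genes were called. Their unadjusted p was under 0.05 for 5 and 10 of 36, against 10.0 and 16.1% of all genes. At the high dose 1 was called, against 1.77% of all genes, and 14 had an unadjusted p under 0.05, against 21.0%. Over the dose trend 0 were called, against 1.49%, and 15 had an unadjusted p under 0.05, against 20.2%. With arrays centred on their median, 8 were called at the high dose, all higher: Cpt1a, Acadvl, Acadl, Eci2, Decr1, Acot8, Pex11a and Cat. That scaling called 8.13% of all genes, 8.05% higher and 0.0834% lower. On the adjusted p alone 6 of 36 passed at the high dose, 4 higher and 2 lower, against 7.48% of all genes (4.54% higher and 2.94% lower). The median change of the 36 at the high dose was 0.04, against -0.00 for all genes, with 20 above 0 (49.4% of all genes) and 16 below, a median that became -0.02 with the slide as a block and 0.38 with median centring. The 95% confidence interval lay wholly inside 1.5-fold for 29 of the 36.

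Acot1 was the 1 called gene. In vehicle lung it was at 0.99, 1.44, 1.74, 1.48 and 2.07, and at the high dose at 1.21, 0.80, 1.25, 0.65 and 0.05. The groups overlapped through vehicle mouse 1, and 3 of 5 high-dose mice lay below every vehicle mouse. It fell by 0.75 on the log2 scale (SE 0.22, limma adjusted p 0.0405), or 1.68-fold. Leaving out vehicle mouse 2, 3, 4 or 5 or high-dose mouse 17, 19 or 20 ended the call, with changes of -0.57 to -0.78 and adjusted p values of 0.0564 to 0.121, and with median centring the change was -0.27 (adjusted p 0.556).

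The 4 genes that rose on the adjusted p alone were 2 mitochondrial acyl-CoA dehydrogenases, Cpt1a and a peroxisomal thioesterase, and each changed by less than 1.5-fold. Acadl, the long-chain dehydrogenase, was at 1.05, 0.96, 0.96, 1.21 and 1.17 in vehicle lung and at 1.43, 1.47, 1.53, 1.44 and 1.52 at the high dose. Its low-dose and medium-dose mice also lay above every vehicle mouse. It rose by 0.41 (SE 0.07, limma adjusted p 0.000867) at the high dose and by 0.29 (adjusted p 0.0323) at the medium dose, where it was the 1 gene of the set past the adjusted p, against 2.34% of all genes. Acadvl was at 0.02, 0.28, -0.07, -0.00 and -0.25 in vehicle lung and at 0.38, 0.48, 0.31, 0.26 and 0.46 at the high dose. Only vehicle mouse 2 and high-dose mouse 19 overlapped. Its rise was 0.38 (SE 0.09, limma adjusted p 0.0131). Acadl and Acadvl stayed past the adjusted p under each of the 16 alternatives run, with adjusted p values of 0.000397 to 0.00364 and 0.00257 to 0.042.

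Cpt1a was at 0.95, 0.56, 1.19, 0.95 and 1.38 in vehicle lung and at 1.45, 1.45, 1.59, 1.47 and 1.17 at the high dose. Of the high-dose mice, 4 of 5 lay above every vehicle mouse. It rose by 0.42 (SE 0.11, limma adjusted p 0.0278), but without mouse 2, the vehicle mouse with the highest Cyp1 cytochromes and the lowest Cpt1a, the change was 0.31 (adjusted p 0.0668), and a second probe changed by 0.18. It also lost its adjusted p without mouse 1, 4, 16, 17, 18 or 19 (0.0514 to 0.0659 and, without mouse 18, 0.0693). Acot8, a peroxisomal acyl-CoA thioesterase, was at -0.50, -0.27, -0.47, -0.48 and -0.18 in vehicle lung and at -0.11, -0.04, -0.12, -0.13 and -0.09 at the high dose, without overlap. Its rise was 0.28 (SE 0.08, limma adjusted p 0.0274), with adjusted p values of 0.0578 to 0.0802 without mouse 1, 3, 4, 17 or 20. A second probe of Acot8 changed by 0.20 (adjusted p 0.11). Eci1, a mitochondrial enoyl-CoA isomerase for unsaturated fatty acids, fell by 0.31 (SE 0.08, adjusted p 0.0308), a direction that turned with median centring (0.19, adjusted p 0.524). Its vehicle mice were at 0.55, 0.59, 0.56, 0.26 and 0.66 and its high-dose mice at 0.02, 0.19, 0.20, 0.28 and 0.36, overlapping only through vehicle mouse 4, and the adjusted p was 0.055 to 0.0821 without mouse 1, 2, 3, 5, 16, 17 or 18. Over the dose trend 6 genes passed the adjusted p, against 6.61% of all genes: Acadl, Acadvl, Cpt1a, Acot8 and Vnn1 rising and Eci1 falling.

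Genes whose high-dose mice did not overlap vehicle were about as frequent in the set as among all genes in lung. There were 3 of 36, Acadl, Acot8 and Vnn1, all above vehicle, against 7.27% of all genes. At the low dose there were 2 (4.08% of all genes), Acadl above and Fgf21 below, the latter at background. At the medium dose there were 2 (3.89%), Acadl above and Pdk4 below. Pdk4 was at 1.12, 0.53, 0.34, 0.65 and 1.58 in vehicle lung and at 0.29, 0.08, -0.14, 0.17 and 0.32 at the medium dose, a difference of -0.70 with an adjusted p of 0.10. The lowest was mouse 13, and without it the difference was -0.63 (adjusted p 0.161) and the groups still did not overlap. Without mouse 13 Acadl changed by 0.29 (adjusted p 0.0412), and Acaa1a also passed the adjusted p (change -0.30, adjusted p 0.0453). At the high dose Pdk4 was at 0.20 to 1.13 and overlapped vehicle. These genes, and those named for passing on the adjusted p alone, were chosen after their values were seen.

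The regulators did not pass the test in lung with all mice. Ppara changed by 0.05 (95% confidence interval -0.25 to 0.35), and its other probes by -0.03 and 0.26 (adjusted p 0.364 for the latter). Ppargc1a changed by -0.42 (adjusted p 0.0506), its second probe, at background in lung, by -0.10. With each mouse left out in turn, Ppargc1a changed by -0.52 to -0.35, with limma adjusted p values of 0.0131 to 0.139. Cpt1b changed by -0.05, Acot2 by -0.09, Acaa1a by -0.12 and Acaa1b by 0.12, none past the test. Fabp1 was at 3.77 to 5.92 at the high dose and 3.93 to 4.58 in vehicle.

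**Figure D2:**
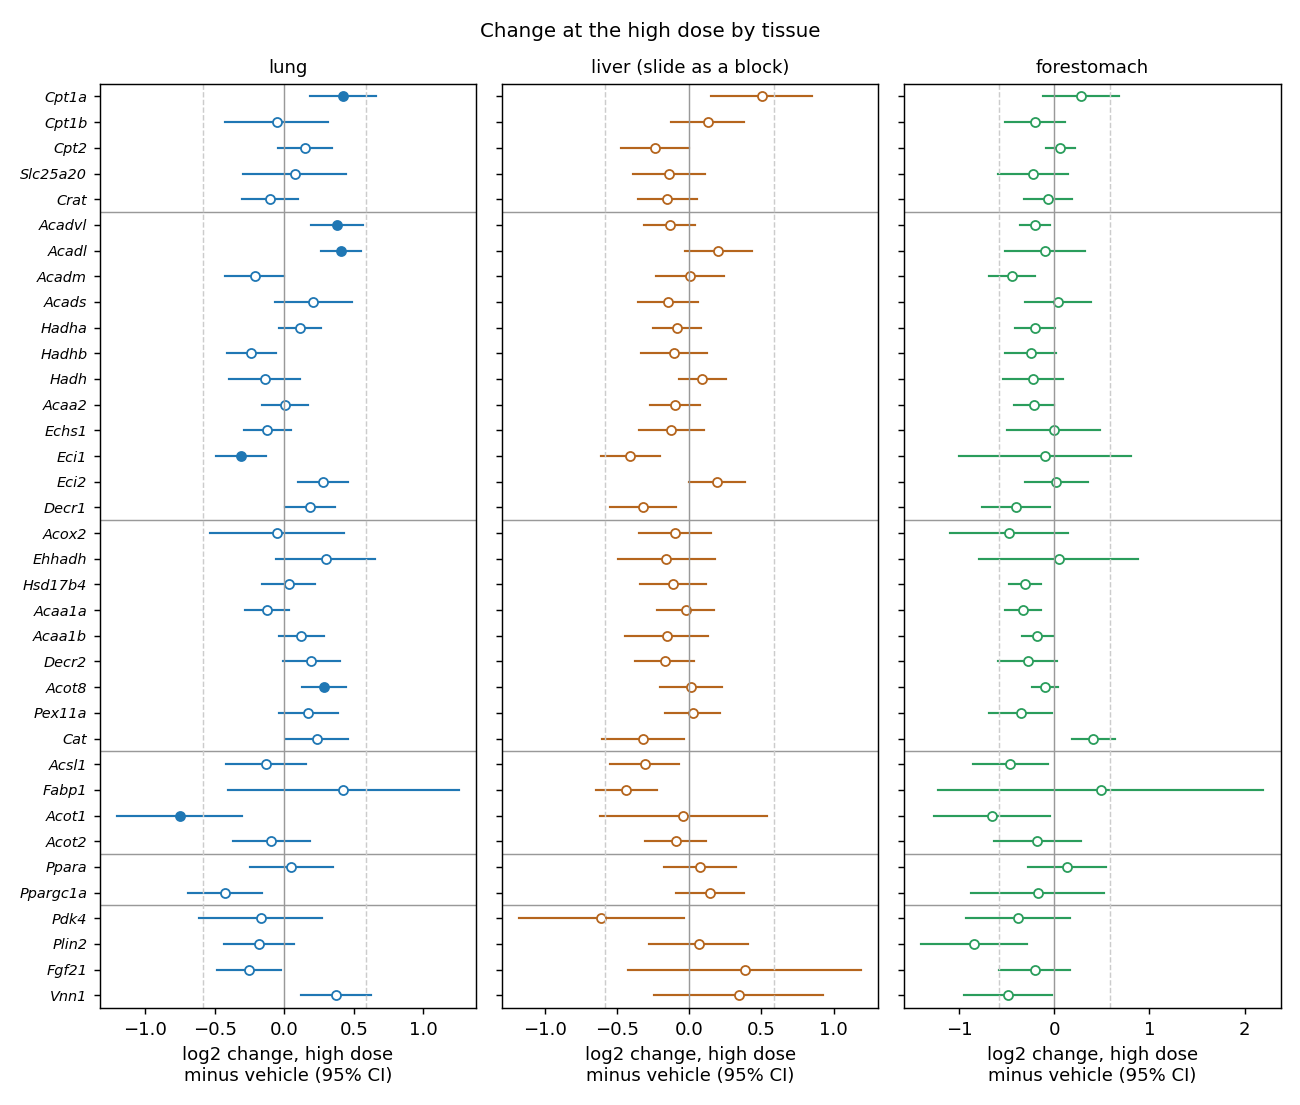
Log2 change at the high dose against vehicle for the 36 genes by role in lung, liver and forestomach, with 95% confidence intervals; filled points have an adjusted p of 0.05 or less, dashed lines mark 1.5-fold, and the horizontal scale differs between panels. Filled points are the 6 lung genes, of which Acot1 alone lies past a dashed line.

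In liver, 0 of 36 genes were called at any dose or over the trend by limma with the slide as a block. Among all genes the share called was 0% at 25 mg, 0.148% at 50 mg, 0.323% at 100 mg and 0.363% over the trend. An unadjusted p under 0.05 was found for 7, 5 and 8 of the 36 at these doses and for 9 over the trend, against 7.48, 10.4, 12.8 and 13.3% of all genes. The 8 at the high dose were Cpt1a, higher, and Cpt2, Eci1, Decr1, Cat, Acsl1, Fabp1 and Pdk4, lower, against 6.78% of all genes higher and 6.01% lower. Second probes of Decr1 and Cat did not fall (0.22 and 0.01), and those of Cpt2 and Acsl1 changed by -0.07 and -0.50. In the same libraries the 5 hepatocyte markers also had changes below 0, with unadjusted p values of 0.0166 for Apoa1 (-0.23), 0.033 for Apoa2 (-0.25) and 0.0145 for Ttr (-0.25) and adjusted p values of 0.274 to 0.379, and their part was not tested. On the adjusted p alone 0 passed at the high dose (0.764% of all genes) and 1 over the trend (0.907%), Eci1 (fitted change -0.40 to the highest dose, adjusted p 0.0372). The median change of the 36 at the high dose was -0.10, against -0.00 for all genes, with 23 below 0 and 13 above (50.0% of all genes above), and the 95% confidence interval lay inside 1.5-fold for 28. No gene of the set was free of overlap with vehicle at any dose, where 0.635, 0.848 and 1.18% of all genes were at the low, medium and high dose.

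Values of several genes differed by slide. Fabp1 was at 10.1 and 10.2 in high-dose mice 16 and 17 on slide 2 and at 8.90 and 9.28 in mice 19 and 20 on slide 3. Its value in mouse 18 was missing, and the fit dropped it. With the slide as a block the change was -0.43 (adjusted p 0.053). Within slide 2, with 2 vehicle and 2 high-dose mice, it was -0.30, and within slide 3, with 1 vehicle mouse and the 2 measured high-dose mice, it was -0.65. Eci1 changed by -0.41 (adjusted p 0.0551), and by -0.21 and -0.54 within slides 2 and 3.

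Cpt1a in liver was at 2.66, 2.28, 2.74, 2.46 and 1.88 in vehicle mice and at 2.93, 3.37, 2.47, 2.33 and 1.56 at the high dose. The groups overlapped, and the lowest mouse of each was on slide 3. The change was 0.50 (95% confidence interval 0.15 to 0.85, adjusted p 0.197), with 0.67 within slide 2 and 0.24 within slide 3, and a second probe gave 0.53 (adjusted p 0.0584). Pdk4 was at 1.85, 1.86, 1.78, 2.36 and 0.22 in vehicle liver and at 0.72, 2.33, -0.07, -0.16 and 0.00 at the high dose. Its change was -0.61 (adjusted p 0.396) at the high dose and -0.84 (adjusted p 0.22) at the medium dose. Fgf21 changed by 0.38 (adjusted p 0.79), and by 0.01 to 0.56 with each mouse left out in turn. Without slide 3 its change was 1.36 (adjusted p 0.28). That setting left high-dose mice 16 and 17 only, at 1.78 and 2.46, against -0.01 to 1.54 in vehicle mice 1 to 4. Vnn1 changed by 0.34, its highest value being 2.46 in high-dose mouse 17.

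The remaining named genes of liver were close to 0 by the probe that stood for each. Ppara changed by 0.07 (95% confidence interval -0.18 to 0.32), Ppargc1a by 0.14, Cpt1b by 0.13, Acot2 by -0.09, Acaa1a by -0.02 and Acaa1b by -0.16. The other probes of Ppara, above background on all liver arrays, changed by 0.04 and by 0.40 (95% confidence interval 0.08 to 0.72, limma adjusted p 0.291). Liver Acot1 was at -0.75, 1.41, 0.17, -0.37 and -0.14 at the high dose and overlapped vehicle. With slide 3 left out, 0 genes were called, the median change was -0.02 and Cpt1a changed by 0.61 (adjusted p 0.159). Without a slide term the median was -0.42.

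In forestomach, 0 of 36 genes were called by limma at any dose or over the trend. The share of all genes called was 0% at the low and the medium dose, 0.0996% at the high dose and 0.0861% over the trend. An unadjusted p under 0.05 was found for 1, 5 and 13 genes from the low to the high dose and for 14 over the trend, against 4.67, 5.83, 9.00 and 8.91% of all genes. Of the 13 at the high dose (4.81% of all genes higher and 4.19% lower), Cat was higher and 12 were lower: the mitochondrial Acadvl, Acadm, Acaa2 and Decr1, the peroxisomal Hsd17b4, Acaa1a, Acaa1b and Pex11a, and Acsl1, Acot1, Plin2 and Vnn1. The second probe of Decr1 did not fall (0.14), and that of Acsl1 changed by -0.75. None of the 36 genes passed on the adjusted p (0.145% of all genes). The median change of the 36 was -0.20, against -0.00 for all genes, with 28 below 0 and 8 above (49.8% of all genes above), but the median was 0.06 with median centring, where that of all genes was 0.08. Intervals were wider than in lung, and 18 of 36 lay inside 1.5-fold.

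Plin2, which coats lipid droplets, was at 0.37, 1.33, 0.57, 0.97 and 1.19 in vehicle forestomach and at -0.03, 0.13, 0.40, -0.07 and -0.21 at the high dose. The groups overlapped only through vehicle mouse 1 and high-dose mouse 18. The change was -0.84 (SE 0.27, adjusted p 0.30). Acot1 was at 3.49, 3.91, 4.26, 3.21 and 3.69 at the high dose, a change of -0.65 from the vehicle values above (adjusted p 0.535), and Vnn1 changed by -0.49 (adjusted p 0.547).

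In forestomach 3 of 36 genes were free of overlap with vehicle at the high dose (2.45% of all genes), and 0 at the low (0.622%) and the medium dose (0.869%). They were named after their values were seen. Cat was at 0.80, 0.45, 0.17, 0.59 and 0.60 in vehicle mice and at 0.84, 1.05, 0.90, 0.86 and 1.01 at the high dose, all above vehicle (change 0.41, adjusted p 0.198, and 0.61 with an adjusted p of 0.25 for its other probe). With median centring Cat was called (0.66, adjusted p 0.0478), where 0.353% of all genes were. Acadm, the medium-chain dehydrogenase, was at 0.75, 0.23, 0.55, 0.33 and 0.91 in vehicle mice and at 0.23, 0.12, 0.20, 0.08 and -0.09 at the high dose, all just below (change -0.44, adjusted p 0.20). Acadvl changed by -0.20 (adjusted p 0.424).

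Fabp1 and hepatocyte markers were high in the same forestomach libraries. At the medium dose it was at 2.60, 7.80, 2.21, 2.96 and 4.86, and the mean log2 ratio of the 5 hepatocyte markers measured (Alb, Apoa1, Apoa2, Ttr and Fgb) was at 2.58, 5.09, 2.56, 2.81 and 3.54 in the same mice. Mice 12 and 15 were highest on both. In vehicle mice the marker mean was 0.0562 to 2.83 and at the high dose 0.772 to 2.46, and all 5 markers were above background in every medium-dose mouse. The medium-dose change of Fabp1 was 2.73 (adjusted p 0.803) and the high-dose change 0.49 (adjusted p 0.92), and the part of hepatocyte RNA in these was not tested. Among the other named genes Cpt1a changed by 0.28, Ppara by 0.14, Ppargc1a by -0.18, Pdk4 by -0.38, Cpt1b by -0.20, Acot2 by -0.18, Acaa1a by -0.33 (adjusted p 0.218) and Acaa1b by -0.18, none past the test.

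**Figure D3:**
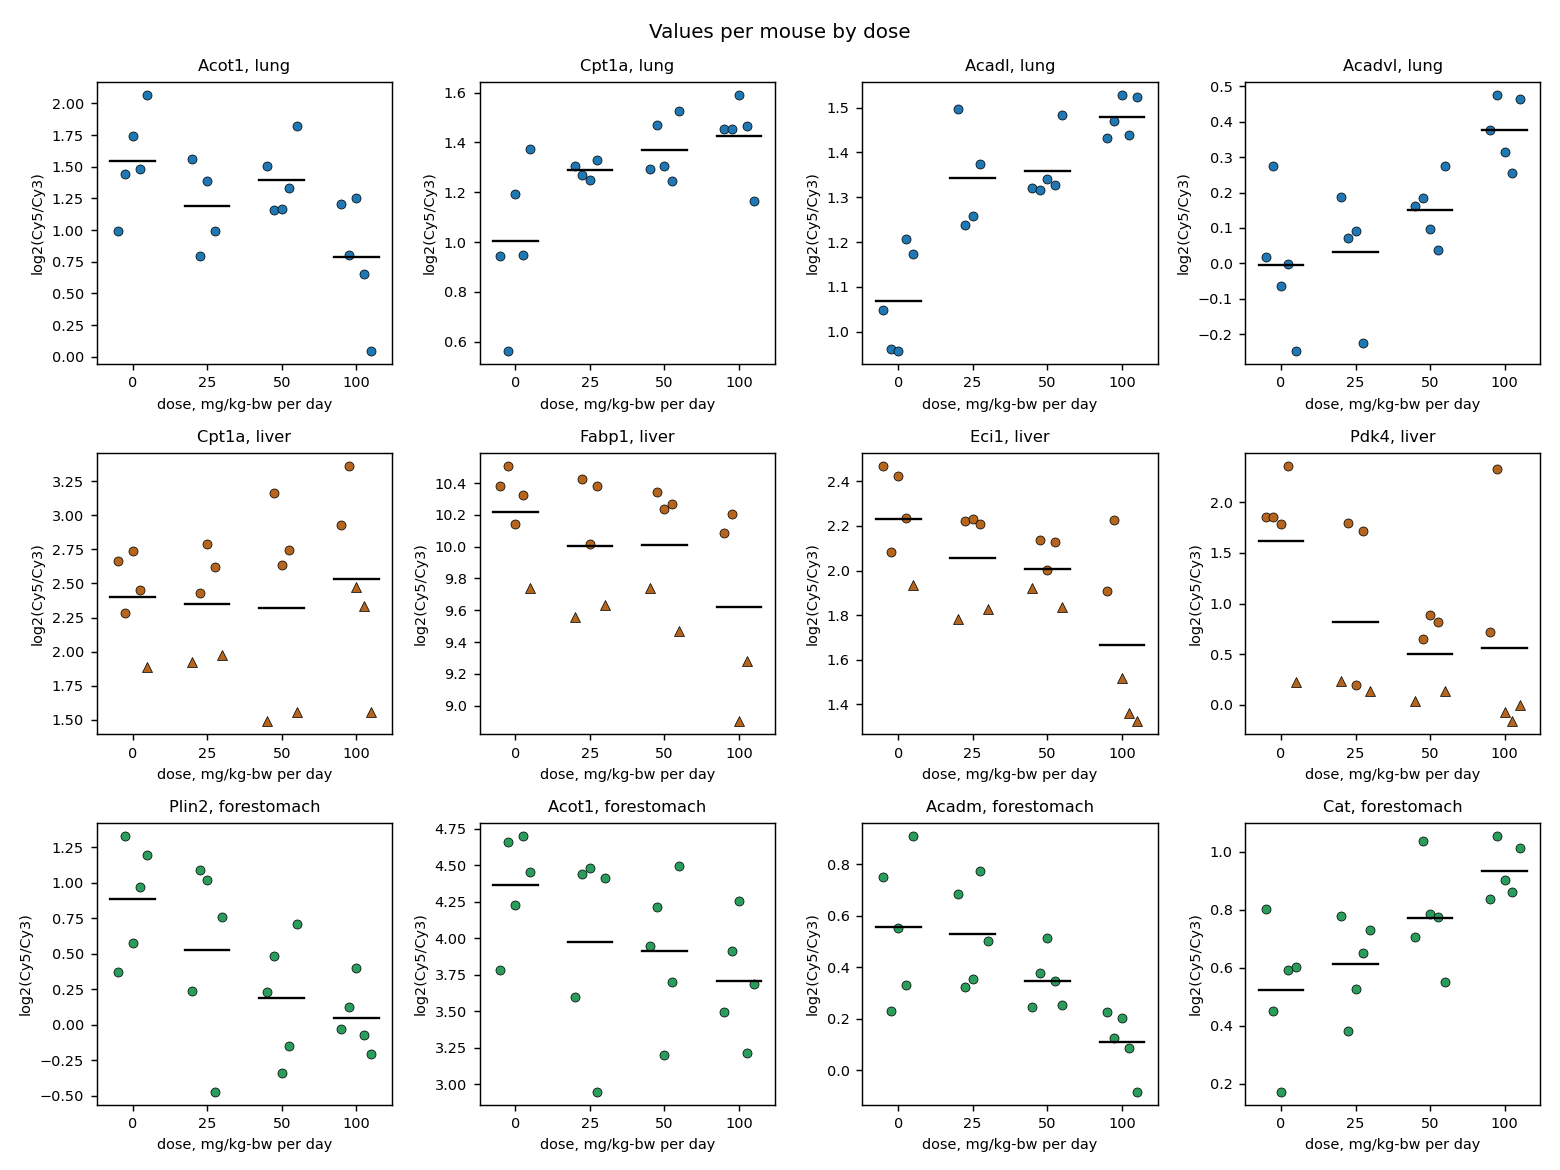
Log2(Cy5/Cy3) by dose for 4 genes in each tissue: Acot1, Cpt1a, Acadl and Acadvl in lung, Cpt1a, Fabp1, Eci1 and Pdk4 in liver, and Plin2, Acot1, Acadm and Cat in forestomach. Each point is 1 mouse, bars are means, and triangles are liver arrays of the dim slide 3, which are the lowest of each dose group for Fabp1; lung Acadl at every dose lies above all vehicle mice.

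The high-dose changes were then compared between tissues directly. The difference was called for 0 of 36 genes in each pair, where 1.39% of all genes were called for lung against liver, 0.912% for lung against forestomach and 0.0753% for liver against forestomach. With median centring 9 were called in lung against liver, all with the higher change in lung, against 6.76% of all genes (6.66% higher and 0.105% lower). On the adjusted p alone Acadvl differed in 2 pairs. Its change in lung was higher than in liver by 0.52 (SE 0.12, adjusted p 0.0188) and higher than in forestomach by 0.58 (SE 0.12, adjusted p 0.00562). Acot8 was higher in lung than in forestomach by 0.38 (SE 0.10, adjusted p 0.0379). These were 1 and 2 of 36 genes, against 2.03% and 1.18% of all genes, and liver against forestomach gave 0 (0.0861%). An unadjusted p under 0.05 was found for 8 genes in lung against liver, 11 in lung against forestomach and 6 in liver against forestomach, against 14.2, 11.5 and 7.89% of all genes. With the mouse as a replicate block, Acadvl in lung against liver had an adjusted p of 0.0523, and 1 gene, Vnn1, was called in lung against forestomach. Acadvl in lung against liver lost its adjusted p without mouse 5, 16 or 20 (0.0527 to 0.113), and both differences from forestomach lost it under median centring (0.258 for Acadvl and 0.58 for Acot8). Acot8 also lost it without mouse 1, 2, 3, 4, 16, 17, 19 or 20 (0.0511 to 0.128).

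Of 49 further genes of the pathway and its regulators, Cd36, the fatty acid transporter, was the 1 gene called at any dose. It rose in liver by 1.08 (SE 0.24, limma adjusted p 0.035) at the high dose, where 0.323% of all genes were called, and by 1.09 (adjusted p 0.0195) over the trend. In lung 4 of the 49 rose on the adjusted p alone at the high dose and none fell, against 4.54% of all genes higher and 2.94% lower: Acox3 (0.52), a branched-chain acyl-CoA oxidase of peroxisomes, Scp2 (0.49), a sterol carrier, Ucp2 (0.43), an uncoupling protein, and Ppard (0.41), which encodes PPAR delta. In vehicle mice 30 of the 49 were called lower and 7 higher in lung than in liver, 18 lower and 7 higher in lung than in forestomach, and 30 higher and 7 lower in liver than in forestomach.

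Genes of the circadian clock and its output differed with dose in the same libraries. The mean log2 ratio of 10 such genes (Dbp, Tef, Hlf, Per1, Per2, Per3, Nr1d1, Nr1d2, Ciart and Bhlhe41) was -0.384 to 0.505 in vehicle lung and 0.912 to 1.52 at the high dose, without overlap. At the high dose 8 of the 10 were called in lung, 2 in liver and 3 in forestomach, where 1.77, 0.323 and 0.0996% of all genes were called. Dbp, a clock-driven transcription factor, rose by 2.87, 2.62 and 2.62 in lung, liver and forestomach, and the tissues were not compared by a test. In forestomach the mean of the 10 was -0.70 to -0.27 in vehicle mice and -0.22 to 0.62 at the high dose, and in liver -0.46 to 0.31 and -0.02 to 0.89. Markers of tissues that burn or store much fat also varied between mice. The mean of the 7 cardiac muscle markers had a median of 2.94 in vehicle lung (0.0856 to 4.07, the highest in mouse 2). At the high dose the median was 0.541 (0.307 to 4.01, the highest in mouse 20). Of the 7 markers, Myh6, Tnnt2, Tnni3, Myl7 and Myl4 had changes of -1.10 to -1.55. Actc1 changed by -0.35 and Nppa by 0.20, and none of the 7 passed the test. Adipocyte markers in lung had a median of 2.21 in vehicle mice (0.745 to 3.25, the highest in mouse 2). At the high dose it was 1.09 (0.87 to 3.93, the highest in mouse 20). Mouse 2 had the lowest Cpt1a of the vehicle lungs, and mouse 20 the lowest Cpt1a and Acot1 of the high-dose lungs. In forestomach adipocyte markers ran from 0.733 to 4.73 in vehicle mice and from 1.04 to 2.38 at the high dose. Skeletal muscle markers in forestomach were at 4.74 in vehicle mouse 5 (group median 1.42) and 5.07 in medium-dose mouse 12 (group median 1.63), the mouse with the highest Fabp1. The part of these in the changes above was not tested.

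**Figure D4:**
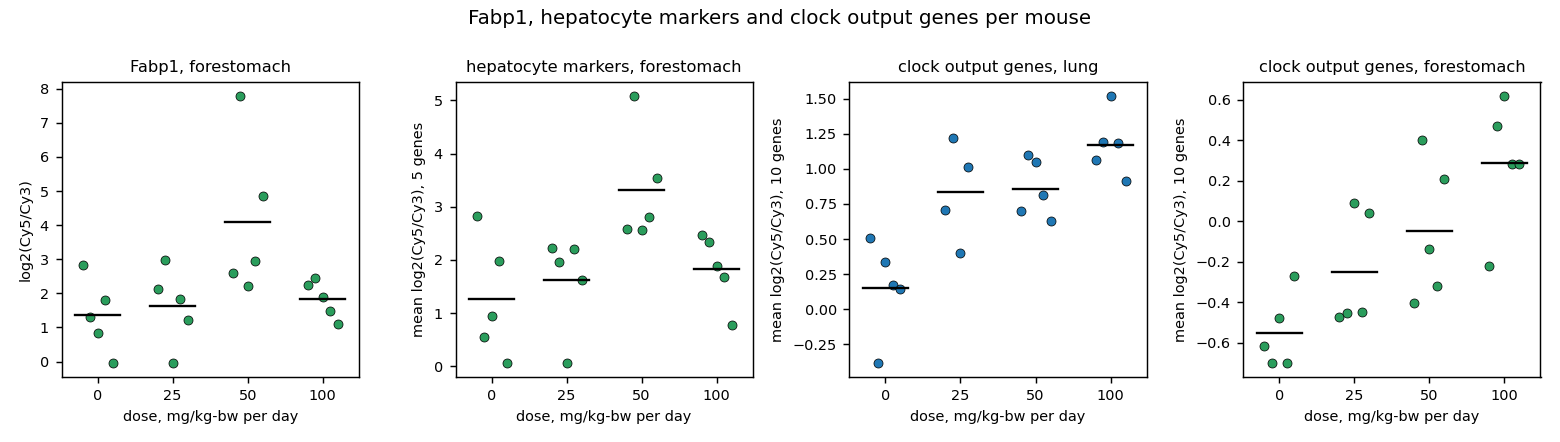
Log2(Cy5/Cy3) by dose of Fabp1 and of the mean of the hepatocyte markers in forestomach. The other panels, titled clock output genes, show the mean of the 10 circadian genes in lung and forestomach. Each point is 1 mouse and bars are means; mouse 12 of the medium dose, at 7.80 for Fabp1 and 5.09 for the markers, is highest in both forestomach panels, and the high-dose lungs lie above all vehicle lungs for the circadian genes.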

How the data were processed

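Gene expression was measured on 59 two-colour Agilent arrays in lung, liver and forestomach of mice at 4 doses. The authors deposited, per array, the scanner output of Feature Extraction 10.7.3.1, of which the Cy5 and Cy3 median intensities were used without background correction, and a table of processed log2 ratios, used as an alternative only. The array files name mm9, so no array coordinates are given. The intensities were normalised within arrays by loess (limma 3.58.1 in R 4.3.3), 59305 non-control spots were averaged to 55681 probes, 484 single values were missing, and 26413 probes were matched by accession to 20018 RefSeq symbols. A gene took its probe with the highest mean Cy5.

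Doses were compared with vehicle by limma with Benjamini-Hochberg adjustment over all 55681 probes, with the slide as a fixed block in liver. The MAANOVA test named in the study's methods was not run. Calls needed an adjusted p not above 0.05 and at least 1.5-fold. By the sample titles the same mouse gave all 3 tissues, so mouse numbers pair tissues. Deviations of the same mouse from its groups had median correlations of -0.031, 0.0337 and 0.0314 over 19, 19 and 20 mice. These values do not bear out the pairing, which rests on the titles. The main tissue tests did not use it, and the mouse as a block was an alternative. Named were genes called in any dose or tissue test, the 3 highest and 3 lowest high-dose changes per tissue among genes above background on at least 3 of 5 arrays of either group, the 4 largest called differences each way per pair of tissues, and Ppara, Ppargc1a, Pdk4, Fgf21, Cpt1a, Cpt1b, Acot1, Acot2, Acaa1a and Acaa1b. The members and all gene lists were chosen with earlier results of these data known. Marker genes Serpina1b and Cd68 were not matched and not used here. Promoter windows came from RefSeq on GRCm38.p6 for 30 genes. The number of arrays limits the precision. Each array held the tissue of 1 animal, and there was no dye swap. Alternatives were other background and scaling choices, filters, probe choice, slide and mouse blocks, the processed log2 ratios the authors deposited, and each mouse left out in turn. The procedure was tested on simulated data.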

Additional observations from a re-analysis of the deposited data

Results flagged for a closer look

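Over 168 sets of gene and group, 10 held a mouse far from the others of its group by Dixon's criterion, and chance gives about 1 in 20. Of these, 4 were vehicle mouse 5 in liver, the 1 vehicle liver array on the dim slide 3. Ppara was 2.85 there (6.27 to 6.42 in the other vehicle mice), Ppargc1a 0.11 (1.44 to 1.57), Pdk4 0.22 (1.78 to 2.36) and Acaa1b 2.36 (3.74 to 4.04). For each of these 4 genes mouse 5 lay within the range of the other mice on slide 3. Over all doses Ppara was 2.68 to 3.38 on slide 3 and 6.06 to 6.47 on the other liver slides. Ppargc1a was -0.19 to 0.415 against 1.44 to 1.98, and Acaa1b 1.885 to 2.80 against 3.56 to 4.08. Pdk4 overlapped, at -0.16 to 0.23 against 0.19 to 2.36. The part of the slide in these values was not tested.

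Elsewhere in liver, Fgf21 was 1.65 in low-dose mouse 9, against -0.29 to 0.26 in the others, and Vnn1 was 2.46 in high-dose mouse 17, against -0.08 to 0.63. In lung, Eci1 was 0.26 in vehicle mouse 4 (others 0.55 to 0.66), Acadl 1.48 in medium-dose mouse 15 (1.32 to 1.34), Acaa1b 0.54 in low-dose mouse 9 (0.75 to 0.78) and Fgf21 -1.65 in low-dose mouse 6 (-1.32 to -1.30), at background.

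High-dose changes that differed between tissues by limma were those of Acadvl, higher in lung than in liver by 0.52 and than in forestomach by 0.58, and of Acot8, higher in lung than in forestomach by 0.38.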

How the results depend on the processing

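Median centring in place of loess changed most. It gave 8 called genes in lung at the high dose and 8 over the trend, with a median change of 0.38 (0.0854 for all genes), 1 in forestomach at the high dose (Cat, median change 0.0613), 11, 2 and 6 in vehicle lung against liver, lung against forestomach and liver against forestomach, and 9 for the high-dose change in lung against liver. Lung Eci1 turned to 0.19. Without dim probes 1 gene was called in lung at the medium dose (Pdk4, lower) and 1 over the trend (Acot1, lower). With the slide as a fixed block the lung median was -0.0209. For the high-dose change in lung against forestomach, 1 gene was called with the mouse as a replicate block (Vnn1) and 1 with slide terms (Acadvl). In vehicle mice the replicate block left 30, 19 and 24 called genes, as did the slide as a random block (correlation 0.205 within slides). The replicate block moved no other count of called genes by over 1.5 times. Under it Acadvl in lung against liver no longer passed the adjusted p of 0.05 (0.0523). With each mouse left out in turn there were 0 to 1 called genes in lung at the high dose and over the trend, 0 to 0 at the other lung doses, in liver and in forestomach, 29 to 33, 18 to 21 and 22 to 29 in the vehicle pairs, and 0 to 2, 0 to 1 and 0 to 0 in the tissue differences. Trend calls in lung were Acot1 without mouse 1, 8, 15, 16 or 18. Median changes were 0.00 to 0.09 in lung, -0.17 to -0.06 in liver and -0.22 to -0.17 in forestomach. Without mouse 5 the vehicle pairs gave 33, 21 and 29. Of the counts under settings that kept all mice, 128 stayed within 1.5 times and 11 did not. The causes were not tested. Within single liver slides only values, not calls, could be given, and on the dim slide few probes were above background.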
